A study of Mus musculus with 2 samples.

Results

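ATP-binding cassette (ABC) genes other than the 3 canalicular genes Abcb11, Abcb4 and Abcc2 were compared between 2 pooled liver samples from mice. A gene was a member if an array probe set was annotated to it alone and its symbol began with Abc, a subfamily letter from a to g and a digit. This gave 42 genes on 89 probe sets, out of 18193 genes and 45101 probe sets on the arrays. The probe set with the highest geometric mean of both arrays stood for its gene. The rule used symbols and signal levels, and the family was taken up with earlier results of these data known.

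One pool came from mice given antagomir-122 and the other from mice given the scrambled control named mm-antagomir-122. Antagomirs are modified oligonucleotides linked to cholesterol that pair with a microRNA and silence it, here miR-122, which hepatocytes make in large amounts. Mice of either group had 3 daily injections of 80 mg/kg body weight and were killed 24 h after the last one. RNA from 3 livers was combined for each pool and hybridised to 1 array, so there was no replicate array and no test between the groups. Strain, sex and age were not given in the labels used here. The labelled tissue was liver, and 13 of 13 hepatocyte markers measured lay above the detection floor used here on both arrays. Among them was Alb, at 26554 in the antagomir-122 pool and 26970 in the control. The dimmest was Ass1, at 245 and 531.

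ABC proteins share an ATP-binding cassette, and in most of them ATP binding and hydrolysis drive a substrate across a membrane. In liver they export sterols and phospholipids, drugs and conjugates, and they carry fatty acyl-CoA into peroxisomes. Subfamilies A, B, C, D and G hold membrane proteins, whereas E and F keep the cassettes without membrane domains and act on ribosomes and translation.

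Values are MAS5 signal intensities, and a ratio is log2 of the antagomir-122 signal over the control signal. A gene counted as measured if the geometric mean of its brightest probe set reached 238, the 60th percentile of all probe sets that are not controls. Of the 42 genes, 30 did, and 12 did not. Across all genes 10003 were measured, with a median log2 ratio of 0.00. The measurement spread, from the differences between 2 probe sets that read 1 gene, had an SD of 0.28 in log2 units (3860 genes). It was 0.35, 0.30 and 0.23 in 3 equal classes of measured genes, from dim to bright. This spread leaves out differences between animals. Spiked hybridization controls were lower on the antagomir-122 array (median log2 ratio -0.27 over 18 probe sets of 4 transcripts). Scaling on them would add 0.27 to every ratio, so the directions below are relative to the bulk of the genes. Whether a lower signal came from fewer cells of a type or from less RNA per cell cannot be told apart in pooled tissue.

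Promoter sequences were examined for the measured members, and those of the genes the results turn on are shown first. Abcb10 and Abcf3 are shown because they were among the 4 lowest members. The segment between Abcg5 and Abcg8 is shown because both subunits of the sterol exporter start from it, in opposite directions. Sequences are from RefSeq, GRCm38.p6, 5′ to 3′ on the strand given, and capitals mark CpG dinucleotides. The Abcb10 segment stops at the annotated start, and that of Abcf3 stops earlier, where the gene's span begins in the RefSeq gene table. The Abcb10 segment is chr8:123983123-123983372 on the minus strand and holds 17 CpG in 250 bases. The Abcf3 segment is chr16:20548353-20548555 on the plus strand, within the span annotated to Gm15760, and holds 21 CpG in 203 bases. The segment between Abcg5 and Abcg8 is chr17:84683012-84683120, printed in the direction of Abcg8, and holds 3 CpG in 109 bases. A longer annotated form of Abcg8 that starts inside Abcg5 spans it.
Abcb10: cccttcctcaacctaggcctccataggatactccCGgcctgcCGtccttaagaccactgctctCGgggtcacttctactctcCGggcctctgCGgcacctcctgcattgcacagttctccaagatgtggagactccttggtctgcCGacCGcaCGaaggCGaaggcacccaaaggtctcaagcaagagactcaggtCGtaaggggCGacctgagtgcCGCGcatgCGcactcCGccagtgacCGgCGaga
Abcf3: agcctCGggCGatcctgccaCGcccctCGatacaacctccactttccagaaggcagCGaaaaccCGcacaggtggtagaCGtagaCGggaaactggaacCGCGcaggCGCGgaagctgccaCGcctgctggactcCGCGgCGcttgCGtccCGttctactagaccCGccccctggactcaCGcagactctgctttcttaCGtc
Abcg5 and Abcg8: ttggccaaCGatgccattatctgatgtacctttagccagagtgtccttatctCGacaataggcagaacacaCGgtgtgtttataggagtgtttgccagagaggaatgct

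Windows from 250 bases before to 50 after an annotated start were found for 22 of the 30 measured members, 28 windows in all. Of the 4 lowest members Abca6 and Abcd2 had none. The observed over expected CpG ratio had a median of 0.76 over the members' windows and 0.75 over the 10517 windows of all measured genes. It ran from 0.13 at Abca9 to 1.12 at Abcd3. Motifs were searched as letters on both strands. Their shares below are over all 32851 windows, and shares over the windows of measured genes were not counted. All windows had a median CpG ratio of 0.38 and a median of 52.7% G and C, against 62.8% in the members' windows. The motif counts are thus not matched for base composition. CACGTG, the E-box, was in 5 of the 28 windows, those of Abca1, Abca8a, Abca8b, Abcc4 and Abcf1, and in 7.15% of all 32851 windows. GGGCGG, the GC box, was in 15 of 28 and in 35.7% of all windows. CCAAT was in 7 of 28 against 37.4% of all windows. TATAAA was in 6 of 28 against 13.6%, and AGATAA in 3 of 28 against 11.2%. TCACCCCAC, a sterol response element, was in the window of Abca3 alone among members and in 0.551% of all windows. In the segment between Abcg5 and Abcg8, AGATAA lay at bases 17 to 22 and 47 to 52 and TATAAA at bases 79 to 84, all on the strand opposite to the one printed and with no overlap. The Abcb10 segment held none of these motifs, and that of Abcf3 held 1 GC box. These matches are descriptions of letters, and no binding was measured.

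Among the 30 measured members, 4 were lower by 1.5-fold or more in the antagomir-122 pool and 0 were higher by as much. Over all measured genes the shares were 2.62% lower and 5.12% higher. The 4 lower members were Abca6, Abcd2, Abcf3 and Abcb10, each of a different subfamily. They were also the members whose ratio exceeded 2 times the spread of their signal class, which 7.32% of all measured genes did. A further 21 members lay within 1.2-fold, or 70.0%, beside 62.5% of all measured genes. Scaled on the hybridization controls, 1 member was lower by 1.5-fold or more (0.63% of all measured genes) and 2 were higher (16.9%). As deposited, the median of the 30 log2 ratios was -0.09. Of the 30, 19 lay below 0 (63.3%), beside 49.6% of all measured genes, and with the controls' scaling 6 did, beside 15.9% of all measured genes. The SD over the members was 0.34, and it was 0.34 over all measured genes.

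**Figure D1:**
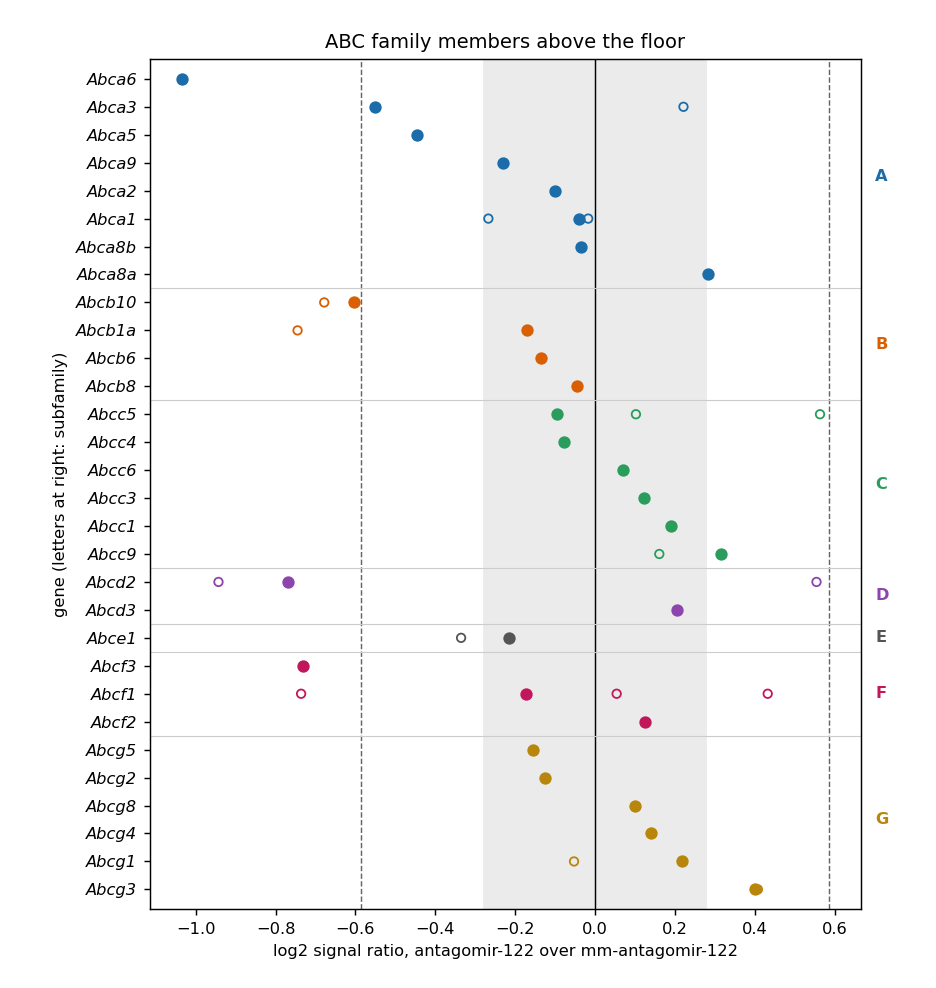
Log2 ratio of antagomir-122 over mm-antagomir-122 signal (x axis) for the 30 measured ABC genes (y axis, grouped by subfamily). Filled points are the brightest probe set and open points are other probe sets above the floor, the grey band is the spread between probe sets (0.28 either way) and dashed lines mark 1.5-fold. Filled points of Abca6, Abcb10, Abcd2 and Abcf3 lie left of the lower line, none lies right of the upper line, and Abcd2 and Abcf1 have open points on both sides of 0.

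Abca6, a member of the A6-like cluster whose substrate is not settled, had signals of 525 in the antagomir-122 pool and 1075 in the control. It was 2.05-fold lower, the only measured member past 2-fold, a change that 0.31% of all measured genes showed downwards. The log2 ratio was -1.03, or 3.48 times the spread of its signal class. It rested on 1 probe set. Scaled on the hybridization controls it was -0.76, still past 1.5-fold.

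The genes of the A6-like cluster are neighbours, in the order Abca8b, Abca8a, Abca9, Abca6 and Abca5 in the RefSeq gene table, and they encode closely related proteins. Their ratios did not share 1 direction. Abca8a, reported to export lipids and drugs, had signals of 5258 and 4325 and a log2 ratio of 0.28. Abca8b, its close paralog, had 685 and 703, a log2 ratio of -0.04. Abca9, also placed in lipid handling, had signals of 308 and 361, and Abca5, a lysosomal member, had 284 and 387. Their log2 ratios were -0.23 and -0.45, the former within the spread of dim probe sets and the latter 1.28 times that spread. The 5 genes are similar in sequence, and cross-hybridisation between them was not tested.

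Abcd2 takes very long-chain and polyunsaturated fatty acyl-CoA into peroxisomes. Its brightest probe set had signals of 861 and 1467, which is 1.70-fold lower (log2 -0.77). A second had 577 and 1109 (-0.94), and another above the floor had 793.5 and 540.4 and went the other way (0.55). The mean of the 3 was -0.39, which is not past 1.5-fold, and scaling on the hybridization controls gave -0.49. One more, under the floor, had 70.5 and 109. Its 3 probe sets above the floor thus did not give 1 direction, and which transcripts each reads was not analysed here.

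Abcd3, the peroxisomal carrier of branched-chain and dicarboxylic acyl-CoA and of bile acid intermediates, had signals of 16706 and 14496 and a log2 ratio of 0.20. Abcd4, which works in the lysosomal release of vitamin B12, was under the floor, with 111 and 205. The members of subfamily D above the floor thus lay on both sides of 0. Of the proteins they work with, Pex19, the chaperone that brings them to peroxisomes, had 3280 and 3201 (0.04). Its other probe sets above the floor had -0.05 and 0.16. Pex3, the docking receptor of Pex19, had 905 and 1236 (-0.45), and -0.22 on another probe set. Mmachc, which processes vitamin B12, had 415 and 549 (-0.40). Pex16 and Lmbrd1 had log2 ratios of -0.30 and 0.03, and each had another probe set of the opposite sign.

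Abcf3 belongs to the cassette proteins without membrane domains and is related to yeast GCN20, which acts in translational control. Its signals were 421 and 699, which is 1.66-fold lower (log2 -0.73). Its other probe sets were under the floor, at 132 and 229 and at 66.3 and 81.5. All 3 were lower in the antagomir-122 pool, but only 1 was measured above the floor. Scaled on the hybridization controls its log2 ratio was -0.46, not past 1.5-fold.

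Abcf1, which binds eIF2 and helps start translation, had signals of 1602 and 1805 on its brightest probe set (log2 -0.17). Its other 3 probe sets above the floor had -0.74, 0.43 and 0.05. The brightest carries the suffix _s, for probes that match several transcripts, and without suffixed probe sets Abcf1 was at -0.74, past 1.5-fold. Abcf2 had 1018 and 933 (0.13). Abce1, which splits ribosomes after termination, had 1359.8 and 1579 on the brightest probe set and 1124 and 1418 on the second, with log2 ratios of -0.22 and -0.34. Of the 4 translation members, 3 lay below 0 as deposited, and with the controls' scaling Abcf3 alone did.

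Abcb10 sits in the inner mitochondrial membrane and is needed for haem synthesis in red cell precursors. Its signals were 605 and 919 on the brightest probe set, 1.52-fold lower (log2 -0.60). The second had 327 and 524, with a log2 ratio of -0.68, and another, under the floor, had 105 and 113. Both probe sets above the floor thus gave a similar ratio. Over all genes, 70 were lower by 1.5-fold or more and had another measured probe set, which was lower by as much in 27.1% of them. Abcb10 is just past the threshold. With a pseudocount of 37.8 its log2 ratio was -0.57, and scaled on the hybridization controls it was -0.33, neither past 1.5-fold.

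The other mitochondrial members had ratios nearer to 0. Abcb6, which carries porphyrins, had signals of 1825 and 2004.5, and Abcb8, of the inner membrane, had 1174 and 1212. Their log2 ratios were -0.14 and -0.05, both within the spread.

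**Figure D2:**
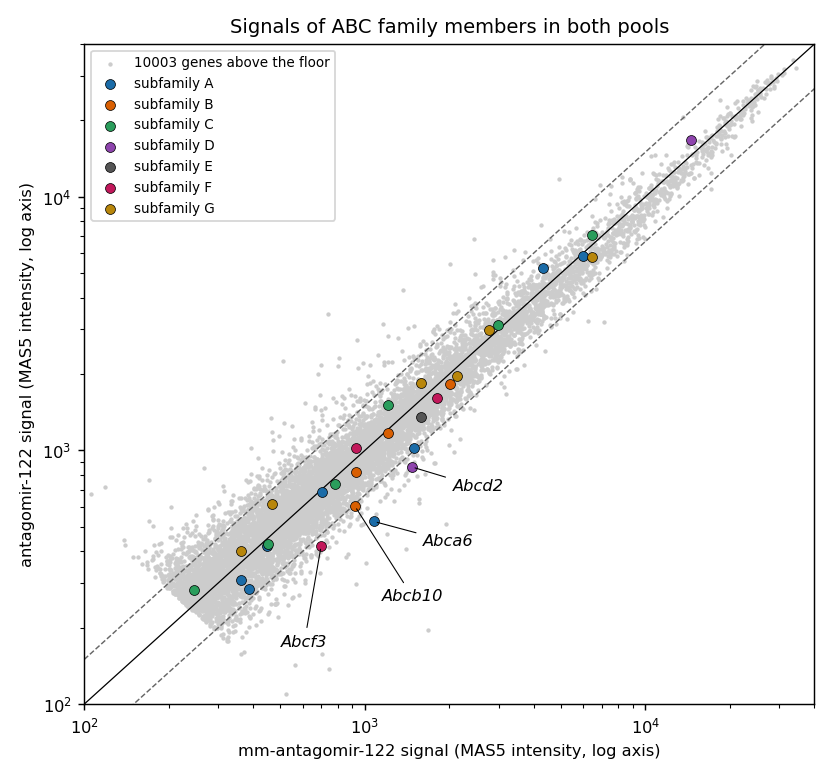
Signal in the mm-antagomir-122 pool (x axis, log scale) against signal in the antagomir-122 pool (y axis, log scale) for the 30 measured ABC genes, coloured by subfamily, over the 10003 measured genes in grey. The solid line marks equal signals and dashed lines 1.5-fold. Abca6 (525 and 1075), Abcb10, Abcd2 and Abcf3 lie below the lower dashed line, and the brightest member, Abcd3, lies near the solid line.

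Sterol and phospholipid exporters showed small differences. Abca1, which loads cholesterol and phospholipid onto apolipoprotein A-I, had signals of 5818.5 and 5988, and log2 ratios over its 3 probe sets of -0.04, -0.27 and -0.02. Abcg1, which passes sterol to HDL, had 1850.1 and 1590.4 (0.22) and, on its second probe set, 276 and 286.5 (-0.05). Abcg5 and Abcg8 form the heterodimer that exports sterols into bile. Abcg5 had 5773 and 6435.5 (log2 -0.16) and Abcg8 had 2977 and 2777 (0.10), opposite in sign and each within the spread of bright probe sets. Abca7, a phospholipid exporter of phagocytes, was just under the floor at 230.5 and 229, and Abcc1 was the first above it. All 4 measured genes of this group lay within 1.2-fold on their brightest probe sets, beside 62.5% of all measured genes. The 4 had a median log2 ratio of 0.03.

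Sterol acceptors and their enzymes also lay within 1.2-fold on their brightest probe sets, 5 of 5, beside 62.5% of all measured genes. Apoa1 and Apoe had log2 ratios of 0.04 and 0.01 at signals of at least 29192.5, near the top of the range, where a difference can be hidden. Lcat, which esterifies HDL cholesterol, had 10250.1 and 12295 (-0.26). Pltp had -0.17 and Scarb1, the HDL receptor, 0.02.

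Exporters of drugs and conjugates were close to equal on their brightest probe sets. Abcb1a, a P-glycoprotein, had signals of 825 and 929 (log2 -0.17), but its second probe set had 410.5 and 688 (-0.75). Abcb1b, its neighbour and close paralog, was under the floor on both arrays at 234 and 145, and values of the pair are uncertain where probes match both. Abcc3, the basolateral carrier of glucuronides and bile acids, had 7041 and 6473 (0.12), and Abcc6, which releases ATP and restrains calcification, had 3131 and 2982 (0.07). Abcc4, which exports nucleotides and bile salts, had 427 and 450.2 (-0.08), and Abcc1, an exporter of glutathione conjugates, had 282 and 247 (0.19). Abcg2, the breast cancer resistance protein, had 1958 and 2134 (-0.12).

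Abcc5, a nucleotide and haem exporter, had 10 probe sets, 3 of them above the floor. Those 3 had log2 ratios of -0.10, 0.10 and 0.56, with signals of 734.5 and 785 on the brightest. Over all 7 measured genes of the drug and conjugate group the median log2 ratio was -0.08. All 7 lay within 1.2-fold on their brightest probe sets, beside 62.5% of all measured genes. Other probe sets of Abcb1a and Abcc5 did not lie within 1.2-fold.

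The remaining members have other roles. Abca3, which packs surfactant lipids in lung, had 1023 and 1498 on the brightest probe set (log2 -0.55, 1.46-fold lower) and 723 and 620.5 on the second (0.22). Abca2, a lysosomal member best known from myelinating cells, had 419 and 449 (-0.10). Abcc9 is the sulfonylurea receptor SUR2, the regulatory subunit of ATP-sensitive potassium channels. It had 1509.5 and 1213 on the brightest probe set and 797 and 713 on the second, with log2 ratios of 0.32 and 0.16. The pore subunit Kcnj11 had 1982 and 2419.9 (-0.29), and Kcnj8 was under the floor by its mean, with 121 and 240.5, of which the control signal alone passed it, a bound of at least 1.01-fold lower. Abcc8, the other sulfonylurea receptor, was under the floor by its mean, with 135 and 255. The control signal alone passed the floor, which makes it at least 1.07-fold lower.

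Abcg3, a rodent relative of Abcg2, had the highest log2 ratio of the measured members. It had signals of 616.5 and 467 on the brighter probe set and 528 and 398 on the other, with log2 ratios of 0.40 and 0.41. That is 1.32-fold higher, 1.35 times the spread of its signal class. Abcg4, best known from brain, had 399.7 and 363 (0.14) on a probe set with the suffix _s. Macrophages and lymphocytes also express genes of this family, Abca1 and Abcg1 among them, so leukocyte markers were read beside these values. Of the Kupffer cell and macrophage markers, 11 of 12 were above the floor. The antagomir-122 pool had the higher signal for all 11 of them, with 2 past 1.5-fold and a median log2 ratio of 0.41. Over all measured genes 5.12% were higher by 1.5-fold or more, and 49.6% lay below 0. The summed signal of the 11 markers was 73333 in the antagomir-122 pool and 55459.9 in the control. Of 6 lymphocyte markers above the floor, 6 had ratios above 0 (median 0.59, summed signals 6526 and 3964), while Cd3e and Cd3g were under the floor. Ighm had 2784.5 and 1309 (1.09) on its brightest probe set, but its others above the floor ran from 0.08 to 0.42. Cd79a had a control signal under the floor (207.5), which makes it at least 1.17-fold higher. Of 6 neutrophil markers above the floor 5 were past 1.5-fold upwards, beside 5.12% of all measured genes. The 6 had a median of 1.30 and summed signals of 8013 and 2451, and Camp was under the floor. Of the 5 past 1.5-fold, Ltf and Mpo had control signals under the floor (198 and 164), which makes them at least 1.54-fold and 1.68-fold higher. Elane went the other way, with 261 and 323 (log2 -0.31), and it alone of the measured leukocyte markers lay below 0. The part of these cells in the values of Abcg1, Abcg3 and Abca1 was not tested.

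For markers of other cell types the median was 0.04 for 10 endothelial markers (summed signals 17309.9 and 17212.5) and 0.03 for 9 stellate and fibroblast markers (25537 and 23807). Of these Tek alone, an endothelial receptor, was past 1.5-fold on its brightest probe set, with 386 and 641 (log2 -0.73). Col1a1, of the stellate and fibroblast list, had 0.44 on its brightest probe set and 0.86, past 1.5-fold upwards, on another. The 13 hepatocyte markers had a median of -0.02, and Ass1 alone of them was past 1.5-fold, with 245 and 531 (log2 -1.12). Of the cholangiocyte markers Tspan8 alone was above the floor by its mean, at 757 and 611. Epcam had 37.1 and 834 on a probe set with the suffix _x, so only its control signal passed the floor, which makes it at least 3.50-fold lower. Krt7, Krt19, Sox9 and Cftr were under the floor on both arrays. Krt7 was higher in the antagomir-122 pool (73.2 and 6), and Krt19 (109 and 159.5), Sox9 (101 and 133) and Cftr (93.4 and 100.1) were lower. The direction of this list is thus not settled.

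By subfamily, the medians of the log2 ratios were -0.16 for A (8 measured genes), -0.15 for B (4), 0.10 for C (6), -0.28 for D (2), -0.22 for E (1), -0.17 for F (3) and 0.12 for G (6). Of the measured genes, 7 of 8 in A and 4 of 4 in B lay below 0, while 4 of 6 in C and 4 of 6 in G lay above it. Over all measured genes 49.6% lay below 0, and many of these member ratios were within the probe set spread. The genes at least 1.5-fold lower were 1 each in A, B, D and F, and 0 in C, E and G, beside 2.62% of all measured genes. The median of D is the midpoint of Abcd2 (-0.77) and Abcd3 (0.20). With quantile normalization and with loess correction each subfamily median kept its sign, whereas scaling on the hybridization controls put those of A, B, E and F above 0 (0.11, 0.12, 0.06 and 0.10). With a floor at the 80th percentile the median of G was -0.01. Genes are not replicates of a condition, so the order of the subfamilies carries no test.

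The 12 members under the floor were 6 of A (Abca4, Abca7, Abca12, Abca13, Abca14, Abca16), 2 of B (Abcb1b, Abcb9), 3 of C (Abcc8, Abcc10, Abcc12) and Abcd4. Their signals ran from 5.9 to 234 in the antagomir-122 pool and from 5.9 to 255 in the control. Abca4, a retinal gene, was listed at 5.9 on both arrays. In this range large ratios were common. Of the 43 member probe sets under the floor, 21 were past 1.5-fold, 13 higher and 8 lower (48.8%), beside 46.2% of all such probe sets. Of the 46 above the floor, 8 were past it, all lower (17.4%), beside 8.39% of all such probe sets in either direction. Of those 16023 probe sets of all genes, 826 were higher and 519 lower by as much. The 8 are not separate genes, since Abcb10 and Abcd2 each entered with the brightest and the second probe set.

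**Figure D3:**
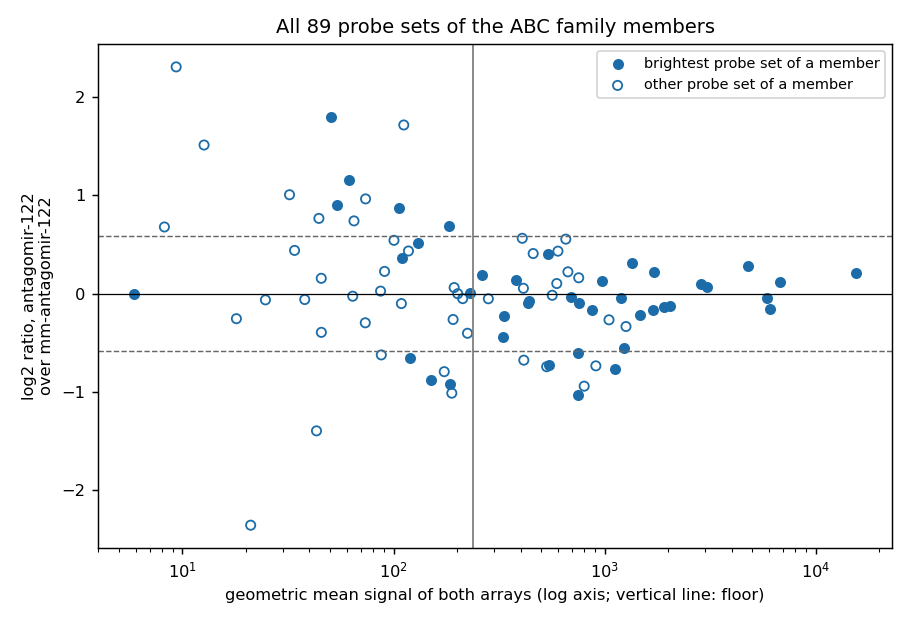
Log2 ratio (y axis) against the geometric mean signal of both arrays (x axis, log scale) for all 89 probe sets of the 42 ABC genes, filled for the brightest of each gene and open for the others. Left of the vertical line at the floor (238) the ratios run from -2.36 to 2.31, and right of it from -1.03 to 0.56, with 8 probe sets below the lower dashed line of 1.5-fold and 0 above the upper.

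Probe sets of one gene did not always share a sign. Shares over all genes were not counted for agreement in sign or for the full range of ratios. Of the 11 members with several probe sets above the floor, 6 had all of them on the same side of 0 (Abca1, Abcb10, Abcb1a, Abcc9, Abce1 and Abcg3). The other 5 were Abca3, Abcc5, Abcd2, Abcf1 and Abcg1. The brightest and second probe sets differed by 1.5-fold or more in 1 of the 11, Abca3, beside 11.5% of 3860 genes. Over all their probe sets above the floor, the highest and lowest ratios were that far apart in 4 of the 11, Abca3, Abcc5, Abcd2 and Abcf1. The median absolute difference was 0.20 for the members and 0.22 over all genes.

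The nuclear receptors and factors that control these genes were measured in the same pools. Of 12 with a measured probe set, 0 were past 1.5-fold and 8 had ratios above 0, with a median log2 ratio of 0.07. The other 4 lay below 0 (33.3%), beside 49.6% of all measured genes. Nr1h3, the liver X receptor that induces Abca1, Abcg1, Abcg5 and Abcg8, had signals of 1777 and 1572.5 (0.18). Nr1i2, the pregnane X receptor, had 1235 and 959 (0.36), and Nr1i3, the constitutive androstane receptor, had 4626 and 5491 (-0.25). Ahr, the aryl hydrocarbon receptor, had 2967.5 and 2227 (0.41) and, on another probe set, 0.58. Ppara, which induces Abcd2 and Abcd3, had 5364 and 5301 (0.02). Over the whole partner list 32 of 33 genes with a probe set were measured, and 0 of them were past 1.5-fold in either direction. Of all measured genes 5.12% were higher and 2.62% lower by as much. Scaled on the hybridization controls 4 partner genes were higher, beside 16.9% of all measured genes.

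**Figure D4:**
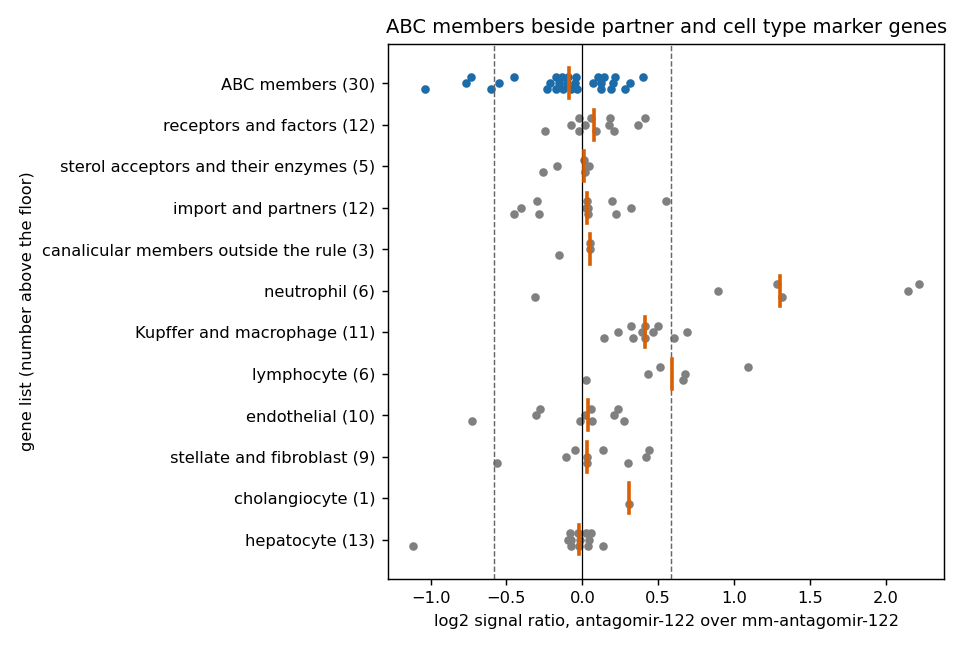
Log2 ratio of antagomir-122 over mm-antagomir-122 signal (x axis) for measured genes of each list (y axis, number of genes in brackets), with the median as an orange bar and 1.5-fold as dashed lines. The ABC members (blue) have a median of -0.09 and spread to the left, and all 32 partner genes lie between the dashed lines. The neutrophil, macrophage and lymphocyte lists lie to the right, with medians of 1.30, 0.41 and 0.59, apart from the neutrophil marker Elane (-0.31).

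The 3 canalicular genes outside the set were close to equal. Abcb11, the bile salt export pump, had 8526 and 8247 (log2 0.05), Abcb4, the phosphatidylcholine floppase, had 6539.9 and 6328 (0.05), and Abcc2, the conjugate exporter, had 3184 and 3536 (-0.15). All 3 lay within 1.2-fold, beside 62.5% of all measured genes.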

How the data were processed

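The 2 samples were used, 1 array for each pool of 3 livers. Per the submitters' processing notes the authors made the probe set intensities with MAS5 (no version given), on a linear scale. The 2% trimmed mean was 500.003 on both arrays, so they had been scaled alike. Gene names came from the platform annotation, checked by gene identifier in the RefSeq table of GRCm38.p6, where 34741 of 34945 single-gene probe sets matched and 0 symbols changed. Ratios were log2 of deposited intensities without a pseudocount. The floor was the 60th percentile of mean log2 intensity. No detection calls were used here. With 1 array per group no test between the pools was possible. The number of arrays limits the precision. Probe set spread was computed over genes with 2 probe sets above the floor: the SD of brightest minus second log2 ratio, over the square root of 2. Every member above the floor is named, and a member under it is given its signals where either array passed the floor. Signals of Abca4, Abca7, Abcb1b and Abcd4 are given outside this rule. The members and lists were chosen with earlier results of these data known. Alternatives were floors at the 40th and 80th percentiles or none, quantile normalization, loess (span 0.3), scaling on hybridization controls, the mean over probe sets, leaving out suffixed probe sets, a pseudocount of 37.8, signals raised to the floor, and thresholds of 1.4-fold and 2-fold. The calculation was tested on simulated data, with folds planted in the control signals and far less noise than the probe set spread. That test thus checked the arithmetic and not how well 1.5-fold can be called in these data. Python 3.11.15, pandas 2.3.3, scipy 1.17.1 and statsmodels 0.14.6 were used.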

Additional observations from a re-analysis of the deposited data

How the results depend on the processing

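Abca6 was at least 1.5-fold lower under all 10 alternatives other than the fold thresholds, with log2 ratios from -1.06 to -0.76. Its 1 probe set is unsuffixed and above the floor on both arrays. The floors, signals raised to the floor, the mean over probe sets and leaving out suffixed probe sets thus could not change its value. Quantile normalization, loess, the pseudocount and the controls' scaling gave -1.06, -1.05, -0.98 and -0.76. The log2 ratios of Abcb10 and Abcd2 stayed below 0 in all 10 and were past 1.5-fold in 8, and Abcf3 was past it in 8 of the 9 that kept it. The floors, raised signals and leaving out suffixed probe sets could not change the values of these genes either. Nor could the mean over probe sets change that of Abcf3. With a floor at the 40th percentile 7 members were lower and 1 higher, and with no floor 7 were lower and 5 higher, because dim genes were added. Over all genes these floors gave 4.03% lower and 8.8% higher, and 9.44% lower and 15.2% higher. In both cases 1 partner gene was lower, the median of subfamily D (also as a role group) was -0.77 and that of the channel regulators -0.30. Scaled on the hybridization controls 1 member was lower and 2 higher, and 4 partner genes were higher, because every ratio rose by 0.27. Over all genes this scaling put 16.9% higher and 0.63% lower. Without suffixed probe sets the medians of subfamily F and of the translation group were -0.73 and -0.53, since Abcf1 and Abce1 were then read from other probe sets and Abcf1 was at -0.74. At 1.4-fold 1 partner gene was higher, and at 2-fold 1 member was lower. Of the single members, the mean over probe sets moved Abca3 to -0.16, Abcb1a to -0.46, Abcc5 to 0.19 and Abcd2 to -0.39. No paired analysis was possible because each group had 1 array. Dim signals limit the 12 members under the floor, whose direction is not settled.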

Other observations

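Some ABC proteins carry symbols that do not begin with Abc. Tap1 and Tap2, the subunits of the transporter that loads peptides onto MHC class I, belong to subfamily B. Tap1 had signals of 1051 and 717 in the antagomir-122 and control pools, 1.47-fold higher (log2 0.55), on its only probe set above the floor. Its other 3 probe sets, all under the floor, had signals from 25.3 to 92.7 in the antagomir-122 pool. Tap2 had 490.3 and 421, a log2 ratio of 0.22. Tapbp, which bridges the transporter to MHC class I, had 5542 and 5399 (0.04) on its brightest probe set and -0.33 on another. Macrophage and lymphocyte markers, also higher in this pool, had medians of 0.41 and 0.59, and their part in the values of Tap1 and Tap2 was not tested. Cftr, the chloride channel of subfamily C and a marker of cholangiocytes, was under the floor on both probe sets, with signals of 93.4 and 100.1 on the brighter.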
